A study of Mus musculus with 12 samples.

Results

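The 2 genes that encode the oxygen-regulated subunits of hypoxia-inducible factor (HIF), Hif1a and Epas1, were described together with 8 genes known as HIF targets, Vegfa, Egln1, Egln3, Bnip3, Pdk1, Ankrd37, Car9 and Ddit4. The 10 genes were chosen by name and were all found, each as a single row, among the 17536 genes of the deposited table. Values were available for 12 RNA-seq libraries of chondrocytes from 5-day-old mice, with 3 libraries for each combination of genotype and cartilage zone. The samples are labelled C57BL/6, and the methods give a C57BL/6J background. R3-Cntl mice were Runx3 fl/fl littermates without a Cre transgene. R3-cKO mice carried Runx3 fl/fl and Col2a1-Cre, which expresses the recombinase in cells that use the type II collagen promoter. Cells of the superficial zone (SFZ cells) were those released first from the epiphyseal cartilage of femur and tibia by trypsin and collagenase, and cells of the deep zone (DZ cells) were obtained by digesting what remained. The methods describe monolayer culture of chondrocytes, and the oxygen level of that culture is not given in the sources used here. Levels are FPKM, which are sequenced fragments divided by transcript length and by library size, after scaling between libraries by the authors. FPKM is a level per length, so the levels of different genes can be set side by side. The question was how the 2 HIF subunits and their targets differed between the zones and between the genotypes.

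In well-oxygenated cells the prolyl hydroxylases, among them the products of Egln1 and Egln3, mark HIF alpha subunits for destruction through the VHL ligase. In low oxygen the subunits persist, pair with ARNT and bind DNA at a short core sequence, ACGTG or GCGTG. Cartilage has no blood vessels, HIF-1 alpha (Hif1a) is needed for the survival of growth plate chondrocytes, and HIF-2 alpha (Epas1) is known as an inducer of catabolic genes in articular chondrocytes. Much of the control of both subunits acts on the protein, which RNA-seq does not measure.

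The cartilage identity of all 12 libraries could be checked by Col2a1, which lay between 3049 and 22791 FPKM. The 10 chondrocyte markers were all higher in DZ cells, with a median log2 difference of 1.41. Prg4, the lubricin gene of the cartilage surface, lay between 2.13 and 22.2 FPKM in SFZ cells and between 1.22 and 5.72 FPKM in DZ cells. Its levels overlapped between the zones over both genotypes (-1.32, adjusted p = 0.0576 by limma) but not within R3-Cntl (-2.36, adjusted p = 0.0485). Within R3-cKO the zone difference of Prg4 was -0.27 (limma, adjusted p = 0.880). The summed superficial zone markers did not overlap, at 175.8 to 477.7 FPKM in SFZ and 38.9 to 119.8 FPKM in DZ cells. Of the 7 tested, 3 passed with a lower DZ level (Postn, Thy1 and Cd34), against 18.9% of all genes. Cd34 entered the test only through SFZ libraries. Gdf5 went the other way (0.89, adjusted p = 0.0596 by limma), and Tnc and Erg did not pass. Runx3, the targeted gene, was at 10.7, 5.98 and 6.65 FPKM in R3-Cntl SFZ libraries 1 to 3 and at 11.8, 9.07 and 3.42 FPKM in the R3-cKO SFZ libraries. In DZ cells Runx3 was at 12.7, 12.7 and 7.66 FPKM in R3-Cntl and at 15.95, 12.7 and 8.14 FPKM in R3-cKO. The libraries labelled R3-cKO therefore did not hold less Runx3 transcript on average than those labelled R3-Cntl, and a gene-level value does not show which exons were read. Lyz2, a macrophage gene, was above 40 FPKM in 4 of the 6 SFZ libraries (R3-Cntl 1 and 2, R3-cKO 1 and 3) and at most 16.2 FPKM in DZ cells. Transcripts of 4 Y-linked genes were under 0.1 FPKM in 4 libraries, which were R3-cKO libraries 2 and 3 of both zones. These RNAs come from bulk samples, where fewer cells of a type and less RNA per cell cannot be told apart.

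The promoter sequences of the genes were taken from RefSeq (GRCm38.p6 table) and placed by exact match on mm9, the build to which the reads were mapped. Epas1 had no entry, and all 9 others held the core ACGTG or GCGTG, read on either strand, in the 250 bases before a start site. The same letters stood before 41.5% of the 27025 genes of the table, so the core is common. CACGTG holds the core on both strands in overlapping letters, which counts as 2 cores. The Runx recognition letters TGTGGT or TGCGGT, also read on either strand, stood before 2 of the 9 genes (Pdk1 and Car9) and before 20.9% of all genes. Windows around cores are shown for the 4 genes with a higher level in DZ cells and for 2 genes without one, written 5′ to 3′ along the gene's strand with cores in capitals, so that CACGT and CACGC are cores read on the other strand.
Bnip3 (chr7:146101272-146101318, reverse strand): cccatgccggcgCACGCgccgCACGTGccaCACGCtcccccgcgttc
Hif1a (chr12:75008707-75008736, forward strand): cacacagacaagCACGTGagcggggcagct
Egln1 (chr8:127473206-127473234, reverse strand): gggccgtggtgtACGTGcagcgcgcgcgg
Pdk1 (chr2:71711191-71711219, forward strand): ccgcctacatggGCGTGtctttaaccagg
Vegfa (chr17:46162307-46162342, reverse strand): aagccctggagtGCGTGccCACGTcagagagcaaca
Ankrd37 (chr8:47085340-47085371, reverse strand): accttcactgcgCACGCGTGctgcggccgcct
In its whole 250 bases Bnip3 held 5 cores, Ankrd37 4, Hif1a 3, Egln1 2 and Pdk1 1. The Hif1a window precedes the RefSeq start at 75008854, which lies inside the gene's span in the GENCODE annotation (chr12:75002362-75048517). For Vegfa the window precedes the downstream of 2 annotated start sites, and the window of the upstream start held 0 cores. A match of these letters is a description of the sequence and not a bound site.

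Among the 10 genes Hif1a had the highest level, at 129 ± 47.4 FPKM (SD, n = 12 libraries), and only 2.61% of all genes had a mean as high. Bnip3 followed at 92.9 ± 56.2 FPKM, Vegfa at 34.4 ± 8.88 FPKM, Ddit4 at 27.2 ± 9.80 FPKM and Egln1 at 23.8 ± 6.05 FPKM. The mean level of Pdk1 was 13.3 ± 4.16 FPKM, that of Car9 was 6.22 ± 2.95 FPKM and that of Epas1 was 4.83 ± 2.02 FPKM. Egln3 at 1.504 ± 0.496 FPKM and Ankrd37 at 0.968 ± 0.339 FPKM were close to the lowest level analysed. Hif1a exceeded Bnip3, Bnip3 exceeded Vegfa, Vegfa exceeded Ddit4 and Egln1 exceeded Pdk1 in 12 of 12 libraries. Ddit4 and Egln1 changed places (Ddit4 was higher in 7 of 12), as did Car9 and Epas1 (Car9 was higher in 6 of 12), so neither pair differed beyond its spread.

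**Figure D1:**
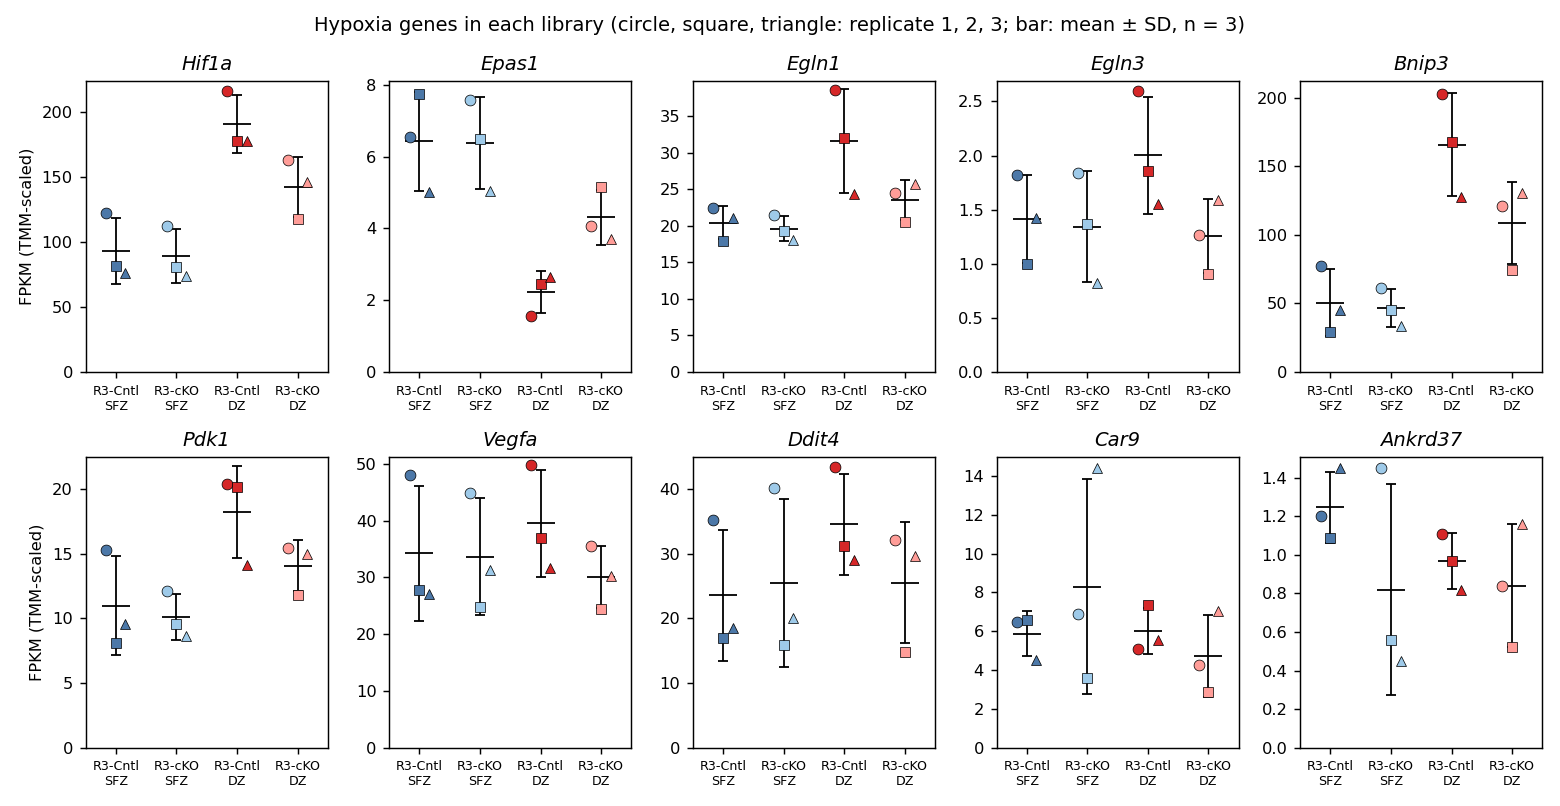
Level of each of the 10 genes in each library in FPKM (vertical axes start at 0), grouped by genotype and zone, with the mean and SD of 3 libraries. Hif1a and Bnip3 lie higher and Epas1 lower in DZ cells, and the R3-cKO DZ means lie between the SFZ and the R3-Cntl DZ means for these 3 genes, with overlap of single libraries.

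The HIF subunits differed between the zones in opposite directions. Hif1a was at 122, 81.4 and 76.0 FPKM in R3-Cntl SFZ libraries 1 to 3 and at 113, 80.6 and 74.1 FPKM in the R3-cKO SFZ libraries. In DZ cells it was at 216, 178 and 178 FPKM in R3-Cntl and at 163, 117 and 146 FPKM in R3-cKO. The zones did not overlap within either genotype, and over all libraries they overlapped only because R3-Cntl SFZ library 1 lay above R3-cKO DZ library 2. With genotype in the model, Hif1a was 0.87 ± 0.16 higher in DZ cells (log2(FPKM + 1), SE, n = 6 against 6; limma, adjusted p = 0.00407), and its mean FPKM was 1.83-fold that of SFZ cells.

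Epas1 showed the reverse order. It was at 6.54, 7.73 and 5.00 FPKM in the R3-Cntl SFZ libraries and at 7.58, 6.50 and 5.05 FPKM in those of R3-cKO. In DZ cells it was at 1.57, 2.44 and 2.66 FPKM in R3-Cntl and at 4.07, 5.16 and 3.70 FPKM in R3-cKO. The R3-Cntl DZ libraries were the 3 lowest of all, and R3-cKO DZ library 2 reached the lower SFZ values. Epas1 was lower in DZ cells by a log2 difference of -0.84 ± 0.17 (SE, n = 6 against 6; limma, adjusted p = 0.00709). Matched by genotype and number, Hif1a was higher and Epas1 lower in DZ cells in all 6 matches, although the numbers do not pair the R3-Cntl zones. The exact permutation test inside each genotype gave p = 0.005 for Hif1a, the smallest it can give, and p = 0.01 for Epas1. The share of all genes at these values was not counted. Zones without overlap were common, at 32.4% of all genes in R3-Cntl and 21.0% in R3-cKO.

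Because both levels are per length, the ratio of Hif1a to Epas1 FPKM was taken in each library, which also cancels any scaling between libraries. It was 18.7, 10.5 and 15.2 in R3-Cntl SFZ, 14.9, 12.4 and 14.7 in R3-cKO SFZ, 138, 72.9 and 66.9 in R3-Cntl DZ, and 39.98, 22.8 and 39.5 in R3-cKO DZ libraries. Every DZ library thus lay above every SFZ library, and every R3-Cntl DZ library above every R3-cKO DZ library. Geometric means were 14.4 and 13.9 in SFZ cells and 87.6 and 33.0 in DZ cells, for R3-Cntl and R3-cKO respectively. The zone difference over both genotypes was 1.92 on the log2 scale (exact two-sided permutation test inside each genotype, p = 0.005, the smallest possible).

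Within a genotype, the log2 ratio differed between zones by 2.60 in R3-Cntl and by 1.24 in R3-cKO (exact permutation p = 0.1 for each, the smallest that 3 against 3 can give). Between genotypes it differed by -1.41 in DZ cells (R3-cKO minus R3-Cntl, exact permutation p = 0.1) and by -0.048 in SFZ cells (exact permutation p = 0.8). The sizes moved with the settings, and Epas1 was low in R3-Cntl DZ cells, at 1.57 to 2.66 FPKM. Over all alternatives the zone difference was 1.31 to 2.06 over both genotypes, 1.68 to 2.80 in R3-Cntl and 0.94 to 1.51 in R3-cKO. The genotype difference in DZ cells was -1.60 to -0.78. Taken by library number, the DZ to SFZ fold of the ratio was 7.38, 6.92 and 4.404 in R3-Cntl and 2.69, 1.84 and 2.69 in R3-cKO. The numbers did not pair the R3-Cntl zones (same-number correlations 0.58, 0.11 and -0.15), so the matching there is arbitrary. The folds by number did not overlap between the genotypes. The exact permutation test of that difference, added after the values were seen, gave p = 0.1, so it could not pass 0.05.

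**Figure D2:**
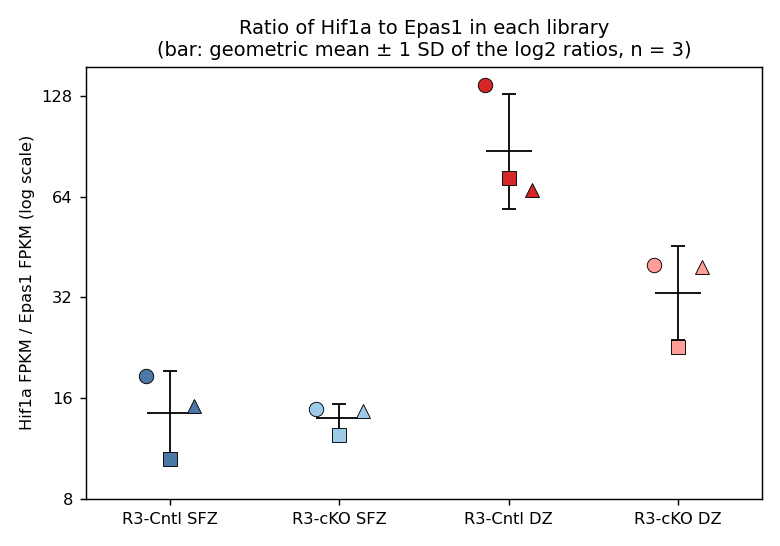
Ratio of Hif1a to Epas1 FPKM in each library on a log axis, by genotype and zone, with the geometric mean and 1 SD of the log2 ratios (n = 3). The 6 SFZ libraries lie between 10.5 and 18.7, the R3-cKO DZ libraries between 22.8 and 39.98 and the R3-Cntl DZ libraries between 66.9 and 138.

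The prolyl hydroxylase genes differed from each other in level and in call. Egln1 encodes the main oxygen sensor of the HIF pathway and is itself a HIF target. It was at 22.4, 18.0 and 21.0 FPKM in R3-Cntl SFZ, 21.4, 19.2 and 18.1 FPKM in R3-cKO SFZ, 38.6, 31.9 and 24.3 FPKM in R3-Cntl DZ, and 24.5, 20.5 and 25.7 FPKM in R3-cKO DZ libraries. All R3-Cntl DZ libraries lay above all SFZ libraries, whereas R3-cKO DZ library 2 did not. Egln1 was 0.42 ± 0.12 higher in DZ cells over both genotypes (log2, SE; limma, adjusted p = 0.0295), a call that was lost when any of 7 of the 12 libraries was left out (adjusted p up to 0.0748). These were R3-Cntl SFZ 2 and 3, R3-cKO SFZ 3, R3-Cntl DZ 1 and 2, and R3-cKO DZ 1 and 3. Egln3, a hydroxylase gene strongly induced by hypoxia in many cells, stayed between 0.82 and 2.60 FPKM, with a zone difference of 0.14 ± 0.15 (limma, adjusted p = 0.548).

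Both mitochondrial targets were higher in DZ cells. Bnip3 encodes a receptor for mitophagy on the outer mitochondrial membrane. Its levels were 77.1, 29.3 and 45.6 FPKM in R3-Cntl SFZ, 61.1, 45.0 and 33.4 FPKM in R3-cKO SFZ, 203, 168 and 127 FPKM in R3-Cntl DZ, and 121, 74.2 and 131 FPKM in R3-cKO DZ libraries. The zones did not overlap within either genotype. Its zone difference was the largest of the 10 genes, at 1.49 ± 0.26 on the log2 scale (SE; limma, adjusted p = 0.00332) and 2.83-fold in mean FPKM, and 0.331% of all tested genes had a difference as high.

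Pdk1 encodes a kinase that inhibits pyruvate dehydrogenase and so keeps pyruvate out of the mitochondrial citrate cycle. It was at 15.3, 8.07 and 9.54 FPKM in R3-Cntl SFZ, 12.1, 9.53 and 8.67 FPKM in R3-cKO SFZ, 20.4, 20.2 and 14.1 FPKM in R3-Cntl DZ, and 15.4, 11.8 and 14.9 FPKM in R3-cKO DZ libraries. SFZ library 1 of each genotype reached the lower DZ values. The zone difference was 0.58 ± 0.16 (log2, SE; limma, adjusted p = 0.0237), and the call was lost when any of 4 of the 12 libraries was left out (R3-Cntl SFZ 2, R3-Cntl DZ 1 and 2, R3-cKO DZ 1, adjusted p up to 0.0560).

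Vegfa and Ddit4 did not pass the test between zones. Vegfa, which encodes the angiogenic growth factor, was at 48.0, 27.7 and 27.0 FPKM in R3-Cntl SFZ, 44.9, 24.8 and 31.2 FPKM in R3-cKO SFZ, 49.9, 36.9 and 31.7 FPKM in R3-Cntl DZ, and 35.5, 24.5 and 30.3 FPKM in R3-cKO DZ libraries. Library 1 was the highest of each group, and the zone difference was 0.048 ± 0.19 (limma, adjusted p = 0.882). Ddit4 encodes an inhibitor of mTORC1 that is also induced by ATF4 and by glucocorticoids. It was at 35.1, 17.0 and 18.5 FPKM in R3-Cntl SFZ, 40.2, 15.9 and 20.1 FPKM in R3-cKO SFZ, 43.4, 31.2 and 28.9 FPKM in R3-Cntl DZ, and 32.1, 14.8 and 29.6 FPKM in R3-cKO DZ libraries. Here too library 1 was the highest of each group, and the zone difference of 0.31 ± 0.28 did not pass (limma, adjusted p = 0.446).

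The same libraries were high in Ddit3, an ATF4 target of the integrated stress response. Ddit3 was at 269, 106 and 113 FPKM in R3-Cntl SFZ, 275, 94.0 and 193 FPKM in R3-cKO SFZ, 299, 184 and 171 FPKM in R3-Cntl DZ, and 215, 82.2 and 182 FPKM in R3-cKO DZ libraries. Library 1 was again the highest of each group. Of the 6 genes of the integrated stress response list, 0 passed the limma test between zones, against 23.2% of all genes, and the list's median difference was 0.21. With the library number as a block, 2 passed with a higher level, against 800 higher and 3165 lower of all 11765 genes in that fit. Here and in the block fits of the lists below, the block also matched the R3-Cntl zones, which the numbers do not pair. The part of this response in the Vegfa and Ddit4 levels was not tested.

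Car9 and Ankrd37, often used as markers of hypoxia, did not follow Hif1a. Car9, which encodes a membrane carbonic anhydrase, was at 6.47, 6.60 and 4.53 FPKM in R3-Cntl SFZ, 6.88, 3.61 and 14.4 FPKM in R3-cKO SFZ, 5.10, 7.35 and 5.57 FPKM in R3-Cntl DZ, and 4.28, 2.87 and 7.03 FPKM in R3-cKO DZ libraries. R3-cKO SFZ library 3 stood at more than any other library, and the zone difference was -0.28 ± 0.28 (limma, adjusted p = 0.503). Ankrd37 lay between 0.45 and 1.45 FPKM, had a zone difference of -0.075 ± 0.14 (limma, adjusted p = 0.738), and fell under the filter of at least 1 FPKM in at least 3 libraries for the R3-cKO zone comparison and for the DZ genotype comparison.

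Over both genotypes, 5 of the 10 genes passed the zone test, 4 with higher levels in DZ cells (Hif1a, Bnip3, Pdk1 and Egln1) and 1 with a lower level (Epas1). Of all 11765 genes tested, 23.2% passed, 4.3% with higher and 18.9% with lower levels in DZ cells. That split depends on the scaling, since the median of all genes was -0.14. Median-of-ratios scaling brought it to -0.01 with 990 genes higher and 1122 lower, and quantile normalization brought it to 0.04 with 1238 higher and 864 lower. The 5 calls and their directions were kept under both scalings. Without the 4 SFZ libraries with Lyz2 above 40 FPKM, an alternative added after the values were seen, Hif1a (1.05, adjusted p = 0.0448 by limma) and Bnip3 (1.51, adjusted p = 0.0491) still passed. Epas1 (-0.71, adjusted p = 0.0975), Pdk1 (0.68, adjusted p = 0.0988) and Egln1 (0.41, adjusted p = 0.203) did not, in a fit with 2 SFZ libraries left that called 153 genes.

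Within a single genotype the same order was seen with fewer libraries. In R3-Cntl, the DZ minus SFZ difference was 1.05 ± 0.21 for Hif1a, -1.20 ± 0.20 for Epas1 and 1.77 ± 0.35 for Bnip3 (log2, SE, n = 3 against 3; limma, adjusted p = 0.0594, 0.0510 and 0.0614). None of the 10 genes passed there, against 1.24% of 11336 genes. Hif1a, Epas1 and Bnip3 did pass with the library number as a block and with all 12 libraries in a single model. In these fits 831 and 798 genes passed in all, and the numbers do not pair the R3-Cntl zones. In R3-cKO the differences were 0.68 ± 0.21 for Hif1a, -0.47 ± 0.18 for Epas1 and 1.21 ± 0.30 for Bnip3 (limma, adjusted p = 0.245, 0.324 and 0.184), and 0 of the 9 tested genes passed, against 0.0176% of 11336. With the library number as a block, which pairs these R3-cKO libraries, 352 genes passed in place of 2, and the adjusted p was 0.0603 for Hif1a, 0.101 for Epas1 and 0.0724 for Bnip3. The groups did not overlap for 4 of the 10 genes in R3-Cntl (Hif1a, Epas1, Bnip3 and Egln1), a share close to the 32.4% of all genes, and for 2 of 9 in R3-cKO (Hif1a and Bnip3), close to the 21.0% of all genes.

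**Figure D3:**
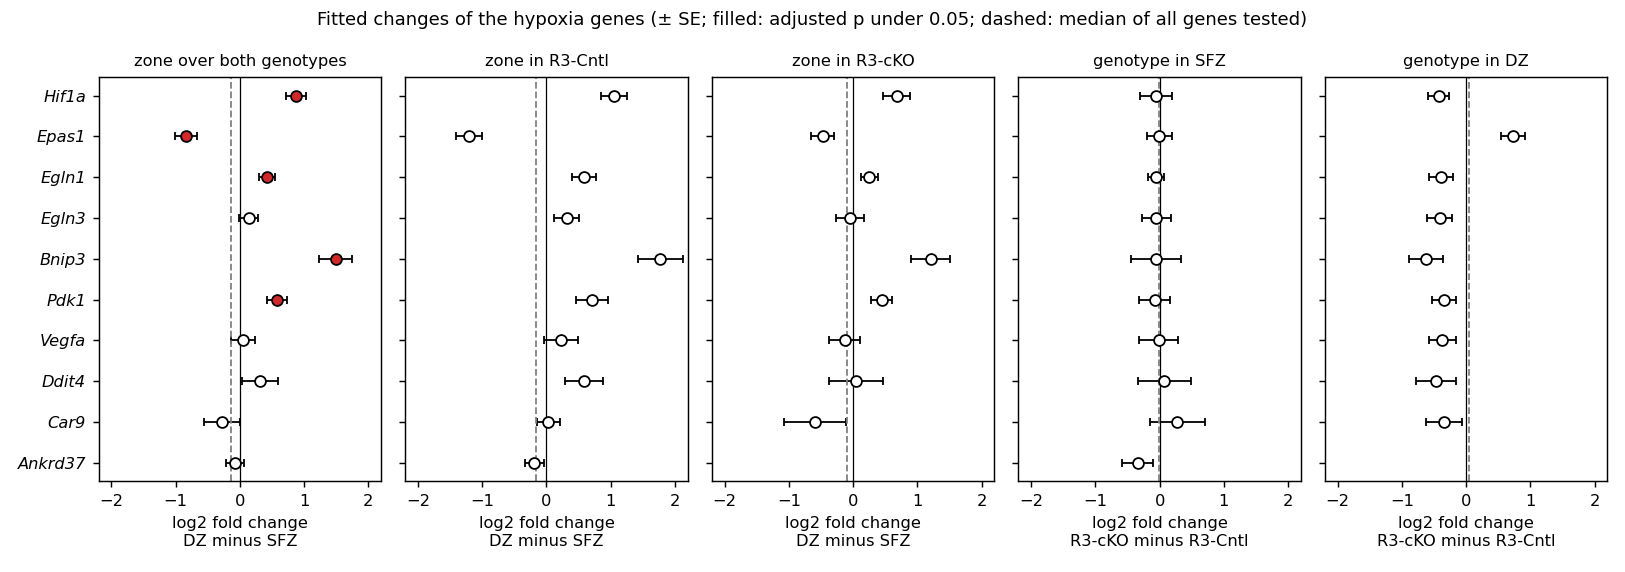
Fitted log2 fold change of each gene (horizontal axes, ± SE) between zones (DZ minus SFZ) and between genotypes (R3-cKO minus R3-Cntl); filled points passed an adjusted p of 0.05 and the dashed line is the median of all genes tested. Filled points appear only for the zone comparison over both genotypes, and in DZ cells Epas1 lies on the other side of 0 from the 8 other genes tested.

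Between genotypes, SFZ cells showed little difference in these genes. The log2 differences (R3-cKO minus R3-Cntl) lay between -0.34 for Ankrd37 and 0.28 for Car9, with -0.055 ± 0.24 for Hif1a and -0.0069 ± 0.20 for Epas1. By limma, 0 of the 10 genes passed, as did 0 of 11537 genes in all (0.0%), and 34 genes had an unadjusted p under 0.05, none of them among the 10. That number was 12 to 1204 with single libraries left out, 1204 being without R3-cKO SFZ library 2. The groups overlapped for all 10 genes, against 2.4% of genes without overlap.

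In DZ cells the R3-cKO means lay nearer to the SFZ means than the R3-Cntl means did for the 5 genes called between zones. No genotype difference passed with adjustment. The zone call itself used the R3-Cntl DZ libraries, and the share of all genes with this order was not counted. The median zone difference of all genes was also smaller in size in R3-cKO (-0.091) than in R3-Cntl (-0.17), and these medians depend on the scaling. The genotype effect in DZ minus that in SFZ cells was negative for all 10 chondrocyte markers (median -0.49), with 0 passing by limma. Of all genes 40.8% were negative, with a median of 0.051. That share depends on the scaling, since 59.2% were positive here, 43.5% with quantile normalization and 48.7% with median-of-ratios scaling. Hif1a was lower in every R3-cKO DZ library than in every R3-Cntl DZ library, with a difference of -0.43 ± 0.17 (log2, SE, n = 3 against 3; limma, unadjusted p = 0.0391, adjusted p = 0.999). For Epas1 the R3-cKO DZ libraries were all higher, by 0.73 ± 0.19 (limma, unadjusted p = 0.00684, adjusted p = 0.999), and mean FPKM was 1.94-fold that of R3-Cntl. Beside this, the summed endothelial markers were at 10.1 to 15.5 FPKM in R3-Cntl DZ and 14.45 to 20.8 FPKM in R3-cKO DZ libraries, and the summed superficial zone markers at 38.9 to 89.1 and 88.5 to 119.8 FPKM. Both ranges overlapped between the genotypes. Of the 12 endothelial markers, 2 (Eng and Egfl7) passed the filter in DZ cells, so that sum rests on few genes. Cdh5 and Emcn were not among them. The summed macrophage markers, at 7.1 to 24.0 FPKM in R3-Cntl DZ and 3.52 to 6.13 FPKM in R3-cKO DZ libraries, did not overlap. The part of these cells in the Hif1a and Epas1 differences was not tested. The exact permutation p was 0.1 for both genes, the smallest possible. These were the only 2 of the 9 tested genes whose groups did not overlap, against 8.03% of all genes, and the only 2 with an unadjusted p under 0.05, against 404 genes (3.64%) in all (211 to 773 with single libraries left out, lowest without R3-cKO DZ library 2 and highest without R3-cKO DZ library 3). With adjustment, 0 of 11091 genes passed (0.0%).

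The other tested genes had lower means in R3-cKO DZ cells without passing. Their differences were -0.62 ± 0.27 for Bnip3, -0.47 ± 0.31 for Ddit4, -0.41 ± 0.19 for Egln3, -0.39 ± 0.19 for Egln1, -0.37 ± 0.21 for Vegfa, -0.34 ± 0.18 for Pdk1 and -0.34 ± 0.28 for Car9. Over all tested genes, 62.3% had a positive difference, a share that depends on the scaling (45.1% with quantile normalization and 50.1% with median-of-ratios scaling). With the library number as a block, which pairs the DZ libraries, 1830 genes had an unadjusted p under 0.05 and 0 passed with adjustment. In that fit the limma p was 0.00492 for Hif1a (adjusted p = 0.183) and 0.00419 for Epas1 (adjusted p = 0.175). Without R3-cKO DZ library 2, the lowest of the DZ libraries in Hif1a, Bnip3 and Col2a1, the difference was -0.30 for Hif1a, 0.62 for Epas1 and -0.37 for Bnip3. R3-cKO libraries 2 and 3, but no R3-Cntl library, were without Y-linked transcripts, and the part of this difference in the genotype comparisons was not tested.

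An interaction term over all 12 libraries compared the genotype effect of DZ cells with that of SFZ cells. For Epas1 it was 0.73 ± 0.28 (DZ minus SFZ; limma, unadjusted p = 0.0240, adjusted p = 0.999) and for Hif1a -0.37 ± 0.31 (limma, unadjusted p = 0.248, adjusted p = 0.999). Epas1 was the single gene of the 10 with an unadjusted p under 0.05, against 99 of 11765 genes (0.841%; 36 without R3-Cntl SFZ library 2 to 714 without R3-cKO SFZ library 2), and 0 genes passed with adjustment (0.0%). A difference in genotype effect between the zones was thus not established for any of the genes.

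The remaining parts of the pathway were described by lists of genes chosen by function. Among 12 tested partners and regulators of HIF, 1 was higher and 3 were lower in DZ cells, against 4.3% of all genes higher and 18.9% lower, so that the lower share was near that of all genes. Hif1an, the asparaginyl hydroxylase that blocks coactivator binding, was higher by 0.24 (limma, adjusted p = 0.0123), from a median of 8.28 FPKM in SFZ to 10.04 FPKM in DZ cells. Arnt2, an alternative dimer partner, was lower by -1.46 (limma, adjusted p = 0.00230), from a median of 3.90 to 1.02 FPKM. Ep300, a coactivator, was lower by -0.28 (limma, adjusted p = 0.0154) and Egln2, the remaining prolyl hydroxylase of the family, by -0.25 (limma, adjusted p = 0.0492), and these 2 lost their call under both other scalings. Without the 4 SFZ libraries with high Lyz2, 0 genes of the list passed, with 0.19 for Hif1an (adjusted p = 0.249) and -1.27 for Arnt2 (adjusted p = 0.0537). Arnt, the usual partner, lay between 15.9 and 22.5 FPKM in all libraries (-0.20, adjusted p = 0.0870) and Vhl between 9.25 and 15.8 FPKM (-0.044, adjusted p = 0.841), and both are named for their role.

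Of 17 tested genes of glucose transport and glycolysis that HIF is known to induce, 10 passed with a higher DZ level and 1 with a lower DZ level, against 4.3% and 18.9% of all genes. Gapdh, Aldoa, Pkm, Gpi1, Hk1 and Pfkp did not pass, although Gapdh, Aldoa and Pkm did with median-of-ratios scaling (adjusted p = 0.0324, 0.0191 and 0.0367), Aldoa with quantile normalization (0.0213) and Gapdh with the block (0.0443). The list's median was 0.73, against -0.14 for all genes. Slc16a3, the lactate exporter MCT4, had the largest difference at 2.28 (limma, adjusted p = 0.00271), with 1.60 to 15.5 FPKM in SFZ cells and 29.8 to 57.3 FPKM in DZ cells, which did not overlap. Pfkfb3, which makes the activator of phosphofructokinase, was higher by 1.19 (adjusted p = 0.00267), Slc2a1, the glucose transporter GLUT1, by 1.08 (adjusted p = 0.0121), Pfkl by 1.06 (adjusted p = 0.00511) and Pgk1 by 0.97 (adjusted p = 0.0162). The glycolytic enzyme genes Hk2, Eno1, Tpi1, Pgam1 and Ldha were higher by 0.81, 0.80, 0.79, 0.73 and 0.73 (adjusted p = 0.0260, 0.0171, 0.0116, 0.00671 and 0.0281). Pfkfb4 was the gene that was lower, by -0.31 (limma, adjusted p = 0.0213), a call absent under both other scalings. Without the 4 SFZ libraries with high Lyz2, Slc16a3 (1.76, adjusted p = 0.0415) was the 1 gene of the list that passed. The list's median was then 0.37, with 0.20 for Ldha in place of 0.73 and 1.24 for Pfkfb3. The 2 SFZ libraries left, R3-Cntl 3 and R3-cKO 2, also had the highest sums of the 5 markers of cycling cells. These were 263 and 221 FPKM, against 24.0 to 156 FPKM in the other SFZ libraries. The part of macrophages and of cycling cells in the change was not tested.

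Of 25 other HIF targets, 8 passed with a higher DZ level and 0 with a lower level, against 4.3% and 18.9% of all genes, and the median was 0.23. With the library number as a block, 10 passed with a higher and 2 with a lower level, against 800 and 3165 of all 11765 genes in that fit. The lower were Adm (-1.06, adjusted p = 0.0450 by limma) and Bhlhe40 (-0.55, adjusted p = 0.0410). Loxl2, a lysyl oxidase that crosslinks collagen, was higher by 1.53 (limma, adjusted p = 0.00188), Fam162a, a mitochondrial protein gene, by 1.09 (adjusted p = 0.00561), and Higd1a, which binds the respiratory chain, by 0.98 (adjusted p = 0.00273). The collagen prolyl hydroxylase genes P4ha2 and P4ha1 were higher by 0.94 and 0.40 (adjusted p = 0.00511 and 0.00995), Car12 by 0.91 (adjusted p = 0.00855), Trf by 0.77 (adjusted p = 0.00831) and Ero1l by 0.71 (adjusted p = 0.0353). Without the 4 SFZ libraries with high Lyz2, 0 genes of the list passed, in a fit with 2 SFZ libraries, and the median was 0.31. The 8 genes with a higher level kept their direction. They were at 1.02 for Loxl2, 0.89 for Fam162a, 0.87 for Higd1a, 0.96 for Ero1l, 0.75 for P4ha2, 0.49 for P4ha1, 1.07 for Trf and 0.45 for Car12. Adm was at -1.65, while Bhlhe40 changed sign to 0.23. Between genotypes in DZ cells 0 genes of any of these lists passed by limma, and the medians were -0.28 for other HIF targets, -0.16 for the glycolytic genes and 0.052 for partners and regulators, against 0.047 for all genes (-0.019 with quantile normalization and 0.00011 with median-of-ratios scaling). In the same comparison the median was -0.44 for the chondrocyte markers (9 of 10 negative) and -0.53 for the hypertrophic markers (7 of 8 negative). Of all genes 37.7% were negative, a share that depends on the scaling. Again 0 genes of these 2 lists passed, and the part of these cells in the genotype differences was not tested.

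Of 8 catabolic genes known to be raised by HIF-2 alpha in chondrocytes, 6 were tested between zones and 0 passed by limma, against 23.2% of all genes. Mmp12, Adamts4 and Mmp3 entered the test through the SFZ libraries, since fewer than 3 DZ libraries reached 1 FPKM, so their sign is no finding. Their differences were -1.40 for Mmp12, a macrophage elastase (unadjusted p = 0.0151, adjusted p = 0.0595 by limma), -0.64 for Adamts4, an aggrecanase (adjusted p = 0.196), and -0.60 for Mmp3, stromelysin (adjusted p = 0.228). With the library number as a block, Mmp12 (adjusted p = 0.0360 by limma) and Col10a1 (adjusted p = 0.0224) passed. In that fit 3965 of all 11765 genes passed, a share near that of this list. Mmp13, the main collagenase of cartilage, was at 118, 130 and 150 FPKM in R3-Cntl SFZ, 84.3, 62.2 and 37.9 FPKM in R3-cKO SFZ, 51.3, 165 and 454 FPKM in R3-Cntl DZ, and 26.3, 50.6 and 86.2 FPKM in R3-cKO DZ libraries. Its zone difference was near 0 (limma, adjusted p = 0.996). Between genotypes Mmp13 differed by -1.16 ± 0.29 in SFZ cells (limma, unadjusted p = 0.00698, adjusted p = 0.9997). The groups did not overlap there, as for 2.4% of all genes. In DZ cells Mmp13 differed by -1.67 ± 0.80 (limma, unadjusted p = 0.0791, adjusted p = 0.999), and the groups overlapped. The paper reports, from experiments other than these libraries, that Mmp13 expression was unchanged by Runx3 deficiency. Col10a1, the collagen of hypertrophic chondrocytes, varied from 3.67 to 793 FPKM and had a zone difference of 2.24 ± 0.89 (limma, adjusted p = 0.0913), which was 0.56 (adjusted p = 0.752) without the 4 SFZ libraries with high Lyz2.

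**Figure D4:**
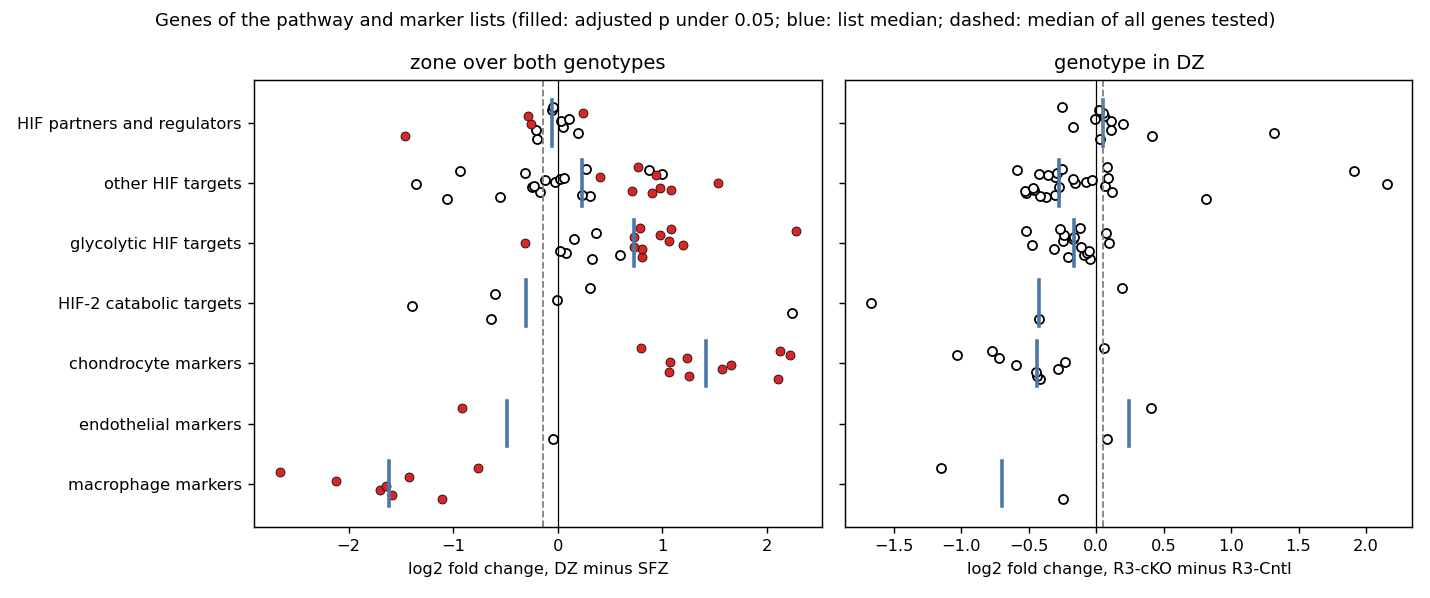
Log2 fold change of each tested gene of 4 pathway lists and 3 cell type lists (horizontal axes) between zones (left) and between genotypes in DZ cells (right), with filled points for an adjusted p under 0.05, blue lines for list medians and dashed lines for the median of all genes. The glycolytic list has a median of 0.73 and the chondrocyte markers one of 1.41 between zones, and no point is filled between genotypes.

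Markers of other cells moved with the zone beside these genes. Endothelial cells are rich in Epas1, and the summed level of the 12 endothelial markers was 25.5 to 34.3 FPKM in SFZ cells and 10.1 to 20.8 FPKM in DZ cells, most of it from Eng. Cdh5, the defining endothelial cadherin, was at most 1.21 FPKM in SFZ cells and at most 0.01 FPKM in DZ cells, and Emcn was at 0 in every DZ library. The summed level of the 10 macrophage markers was 7.38 to 173 FPKM in SFZ and 3.52 to 24.0 FPKM in DZ cells, and Lyz2 (-2.66, adjusted p = 0.0389 by limma) and Cd68 (-2.12, adjusted p = 0.00825) were lower in DZ cells, while 6 others entered the test only through SFZ libraries. The summed level of the 10 chondrocyte markers was 5242 to 15474 FPKM in SFZ and 16199 to 36072 FPKM in DZ cells. R3-cKO DZ library 2 had the lowest chondrocyte sum of the DZ libraries, and R3-Cntl SFZ library 2 the lowest of all. The summed level of the 6 muscle markers was 109.8 FPKM in R3-Cntl SFZ library 2 and at most 19.3 FPKM in any other library. Without R3-Cntl SFZ library 2, 1624 genes passed between zones over both genotypes in place of 2725. The part of these cell types in the differences of Hif1a, Epas1, Bnip3 and the glycolytic genes was not tested.

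As a description, the genes whose log2 levels ran most like Hif1a over the 12 libraries were H2-Ab1 (Pearson r = 0.984), Mgarp (0.983), Map7d3 (0.981), Gfpt1 (0.976) and Clint1 (0.974). Those most like Epas1 were Cipc (r = 0.971), Lipa (0.962), Bicd2 (0.962), Aph1a (0.956) and Sipa1l3 (0.953). The points share the zone contrast and the scaling, and the genes were picked as the highest of 11764. Aph1a lay between 32.2 and 34.2 FPKM in SFZ cells and between 25.7 and 30.8 FPKM in DZ cells without overlap, and Gfpt1 between 29.7 and 45.2 FPKM and between 49.7 and 79.2 FPKM.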

How the data were processed

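The authors prepared RNA from 3 mice per genotype and zone, sequenced 100-bp paired-end reads on a BGIseq-500 and mapped them to mm9. The submitters' processing notes list Bowtie 0.12.2, and the read counter and annotation are not given in the sources used here. The deposited table holds 1 value per gene and library. From its behaviour the unit is FPKM, which the authors scaled by TMM (trimmed mean of M values). This was inferred, and the quantile normalization and log2 CPM that the methods name were not seen in the values. Library sums were 392241 to 429213 FPKM. The table gives no depth, which is therefore unknown, and errors rest on the spread of the libraries alone.

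Values were analysed as log2(FPKM + 1), with genes at 1 FPKM or more in at least 3 libraries of the comparison, by limma 3.58.1 in R 4.3.3 (empirical Bayes with a mean-variance trend, Benjamini-Hochberg adjustment over all genes, threshold 0.05). This pseudocount understates fold changes of low genes. The test was checked on simulated data. Exact two-sided permutation tests, ratios and sequence searches used Python 3.11.15. The 6 comparisons were genotype in each zone, zone in each genotype, zone over both genotypes with genotype as a term, and genotype by zone. Alternatives were no filter, a mean of 10 FPKM, pseudocounts of 0.1 and 5 (and 1 for the ratio, added later), median-of-ratios scaling, quantile normalization, the number as a replicate block, a joint model of the 12 libraries, omission of each library in turn and, added after the values were seen, the zone fit without 4 SFZ libraries with Lyz2 above 40 FPKM.

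Deviations from group means correlated at 0.65, 0.78 and 0.69 between same-numbered DZ libraries and at 0.42, 0.78 and 0.65 between the zones of R3-cKO (11359 genes), so the numbers pair those libraries. They did not elsewhere. In the zone fit over both genotypes and in the interaction, the block was genotype and number together. It thus also matched the R3-Cntl zones, which the numbers do not pair. The study describes both zones as taken from 3 individual littermate mice per genotype, without saying that a number marks the same animal in both, and p-values measure the spread between these samples. The genes, lists and tests were chosen with earlier results of these data known. All 10 genes were named with their values, of each pathway list the genes that passed or, with none, at most the 4 largest (Arnt, Vhl, Ddit3, Mmp13 between zones and the glycolytic genes that did not pass were named outside this rule, after their values were seen), and for Hif1a and Epas1 the 5 genes most like each. Of 163 names on the lists, 1 (Hbb-b1) had no row.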

Additional observations from a re-analysis of the deposited data

Results flagged for a closer look

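Vegfa differed between zones in opposite directions in the 2 genotypes. It was higher in DZ than in SFZ cells for all 3 library numbers of R3-Cntl (a log2 difference of 0.23 ± 0.27) and lower for all 3 of R3-cKO (-0.13 ± 0.25). The test of this difference gave -0.36 ± 0.39 (limma interaction, unadjusted p = 0.382, adjusted p = 0.999), so it did not exceed the spread between libraries. With the library number as a block, the same difference had an unadjusted limma p of 0.0471 and an adjusted p of 0.610. The numbers do not pair the R3-Cntl zones.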

How the results depend on the processing

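The zone differences of Hif1a, Bnip3 and Epas1 over both genotypes passed in every alternative in which they were tested, except Epas1 without the SFZ libraries with Lyz2 above 40 FPKM. Epas1 was not tested at a mean of 10 FPKM. Leaving out single libraries gave 0.79 to 0.97 for Hif1a, 1.31 to 1.63 for Bnip3 and -0.94 to -0.73 for Epas1. In R3-Cntl alone, Hif1a, Epas1 and Bnip3 passed with the library number as a block (adjusted p = 0.0305, 0.0417 and 0.0342) and with all 12 libraries in a single model (0.0231, 0.0126 and 0.0224), and Hif1a and Bnip3 without R3-Cntl SFZ library 1 (both 0.0323). The numbers did not pair the R3-Cntl zones or the SFZ libraries (same-number correlations 0.58, 0.11 and -0.15, and 0.79, -0.09 and -0.42), where they are only numbers. Beyond the values given in the report, the block changed no other call of the 10 genes.

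Counts of genes passing between zones moved most. In R3-Cntl (140 genes) the count was 0 with no filter, 8 at a mean of 10 FPKM, 88 and 29 with pseudocounts of 0.1 and 5, 4 with quantile normalization, 18 with median-of-ratios scaling, 831 with the replicate block, 798 with all 12 libraries in a single model and 0 to 505 with single libraries left out. In R3-cKO (2 genes) it was 7 with no filter, 0 at a mean of 10 FPKM, 1 with either pseudocount, 352 with the replicate block, 165 in the single model and 0 to 5 with libraries left out. Over both genotypes (2725 genes) it was 1162 at a mean of 10 FPKM, 153 without the SFZ libraries with Lyz2 above 40 FPKM, 3965 with the replicate block and 1624 (without R3-Cntl SFZ library 2) to 2899 with libraries left out. The causes were not tested.

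Small differences changed sign. With quantile normalization Epas1 (0.016) and Egln3 (0.064) did between genotypes in SFZ, Ankrd37 between zones in R3-Cntl (0.083) and over both genotypes (0.20), and Egln3 in R3-cKO (0.13). With median-of-ratios scaling Epas1 in SFZ (0.000802), Egln3 in R3-cKO (0.027) and Ankrd37 over both genotypes (0.0021) did, and Car9 over both genotypes without the SFZ libraries with Lyz2 above 40 FPKM (0.29). Leaving out single libraries moved the SFZ genotype differences through 0, from -0.23 to 0.15 for Hif1a, -0.15 to 0.13 for Epas1, -0.27 to 0.14 for their log2 ratio, -0.39 to 0.30 for Bnip3, -0.17 to 0.70 for Car9, -0.30 to 0.39 for Ddit4, -0.14 to 0.0085 for Egln1, -0.20 to 0.12 for Egln3, -0.25 to 0.17 for Pdk1 and -0.24 to 0.25 for Vegfa. Between zones it did so for Car9 in R3-Cntl (-0.12 to 0.12), for Ddit4 (-0.23 to 0.42), Egln3 (-0.21 to 0.11) and Vegfa (-0.32 to 0.093) in R3-cKO, and for Ankrd37 (-0.15 to 0.016) and Vegfa (-0.051 to 0.17) over both genotypes. None of these values passed the test.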
